A study of Mus musculus with 4 samples.

Results

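The genes described here are those of the Wnt pathway named by the array: the secreted Wnt ligands, the proteins that help ligands leave the cell or keep receptors at its surface, the receptors, the secreted inhibitors and the first steps inside the cell. They were taken by gene name, whatever their values. The names were those that start with Wnt or Fzd and a number, Sfrp1 to Sfrp5, Dkk1 to Dkk4, Axin1 and Axin2, Dvl1 to Dvl3, Kremen1 and Kremen2, Daam1 and Daam2, Wif1, Frzb, Lrp5, Lrp6, Ror1, Ror2, the Tcf7 family, Lef1, Apc, Gsk3b, Porcn and Rspo1 to Rspo4. The rule gave 62 genes with 97 probes of 60 bases, of 19505 genes with a symbol and 41174 probes in all.

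RNA from cultured mouse embryo fibroblasts (MEFs) that lacked stathmin, a protein that destabilizes microtubules, was hybridised together with RNA from STMN1+/+ MEFs on each of 4 Agilent 2-color arrays. Both groups were embryonic fibroblasts of strain C57BL/6, derived per the study's methods from embryos of STMN1+/- matings. The mutant allele, per those methods, was disrupted by a neomycin cassette. STMN1-/- RNA carried Cy3 on arrays 1 and 2 and Cy5 on arrays 3 and 4. Which embryo's cells each array held is not given in the labels, and each p-value reflects variation from array to array, possibly of technical origin.

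Wnt proteins are lipid-modified signals that act over short distances. On the receiving cell they bind a Frizzled together with Lrp5 or Lrp6, which stops the Axin, Apc and Gsk3b complex from marking β-catenin for breakdown, so that β-catenin reaches the nucleus and acts there with TCF/LEF factors. Other Wnts act through Frizzled with Ror2 and Dishevelled on cell polarity, the cytoskeleton and migration, and fibroblasts are both sources and receivers of Wnt signals and of their secreted inhibitors.

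Of 4 arrays, none had a saturated spot, 472 to 711 of 43379 spots were left out as outliers, and 24808 to 26029 probes were well above background in a channel. The ratios of all probes correlated at 0.689 and 0.703 for pairs of arrays with equal dye labels and at 0.445 to 0.489 for pairs with swapped labels, across probes, which are not independent. The targeted gene, Stmn1, was measured by 2 probes. One had signals of 155664 to 179471 in STMN1-/- MEFs against 212488 to 242439 (log2 ratio -0.39, SE 0.07, adjusted p = 0.0181), and the other 5115 to 7002 against 24158 to 28539.6 (log2 ratio -2.16, SE 0.06, adjusted p = 0.000602). The study's text says that the array's probe for Stmn1 also matches another place in the genome, without naming the probe. It also states, citing earlier work, that qRT-PCR and western blots found neither Stmn1 RNA nor its protein in STMN1-/- MEFs. Whether one or both probes have the other match was not examined here. The signals left in STMN1-/- MEFs are therefore not read here as Stmn1 RNA.

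A larger share of the members than of all genes passed the test. A gene stood by its brightest tested probe, and a value is the log2 ratio of STMN1-/- over STMN1+/+ processed signals, its mean over arrays tested against 0 with limma and adjusted over all tested probes. Of 54 members bright enough to test, 16 were higher and 8 lower in STMN1-/- MEFs, against 13.5% higher and 12.3% lower among all 14979 genes tested. In either direction that is 44.4% of members beside 25.8% of all genes, and 29 members had an unadjusted p under 0.05. With a fold of at least 1.5 as well, 7 members were higher and 6 lower, beside 4.96% and 4.34% of all genes. The median log2 ratio was 0.13 over members and 0.01 over all genes, and the median size of a log2 ratio, whatever its sign, was 0.31 over members and 0.17 over all genes. Whether the members differ from other genes was not tested. Another background correction (normexp with loess in place of the processed signals) left 7 members higher and 1 lower, 8 genes that all passed before. Calls also fell over all 27648 tested probes, from 3098 higher and 3086 lower to 991 and 1148. With 1 array left out, 10 to 12 members were higher and 5 to 8 lower. The 5 were those without array 4, and the 10 those without array 2 or 3. Over all probes, leaving out 1 array gave 1460 to 1649 higher and 1348 to 1537 lower.

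The secreted inhibitors held the most members that rose, and the ligands moved both ways. Wnt9a, Wnt16 and Wnt4 rose while Wnt7a, Wnt10b, Wnt10a and Wnt7b fell. Among 9 tested inhibitors, Sfrp1, Sfrp2, Sfrp4, Wif1 and Dkk3 rose and Dkk2 fell. Among 10 Frizzleds, Fzd1, Fzd2 and Fzd6 rose and Fzd10 fell. The share called was 66.7% of tested inhibitors, 46.7% of tested ligands and 40% of Frizzleds, beside 25.8% of all genes. Whether any role differs from all genes was not tested. With normexp and loess, the inhibitors that passed were Sfrp1, Sfrp2, Dkk3 and Dkk2. Fzd1, Fzd2 and Fzd6 did not pass when any 1 array was left out.

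**Figure D1:**
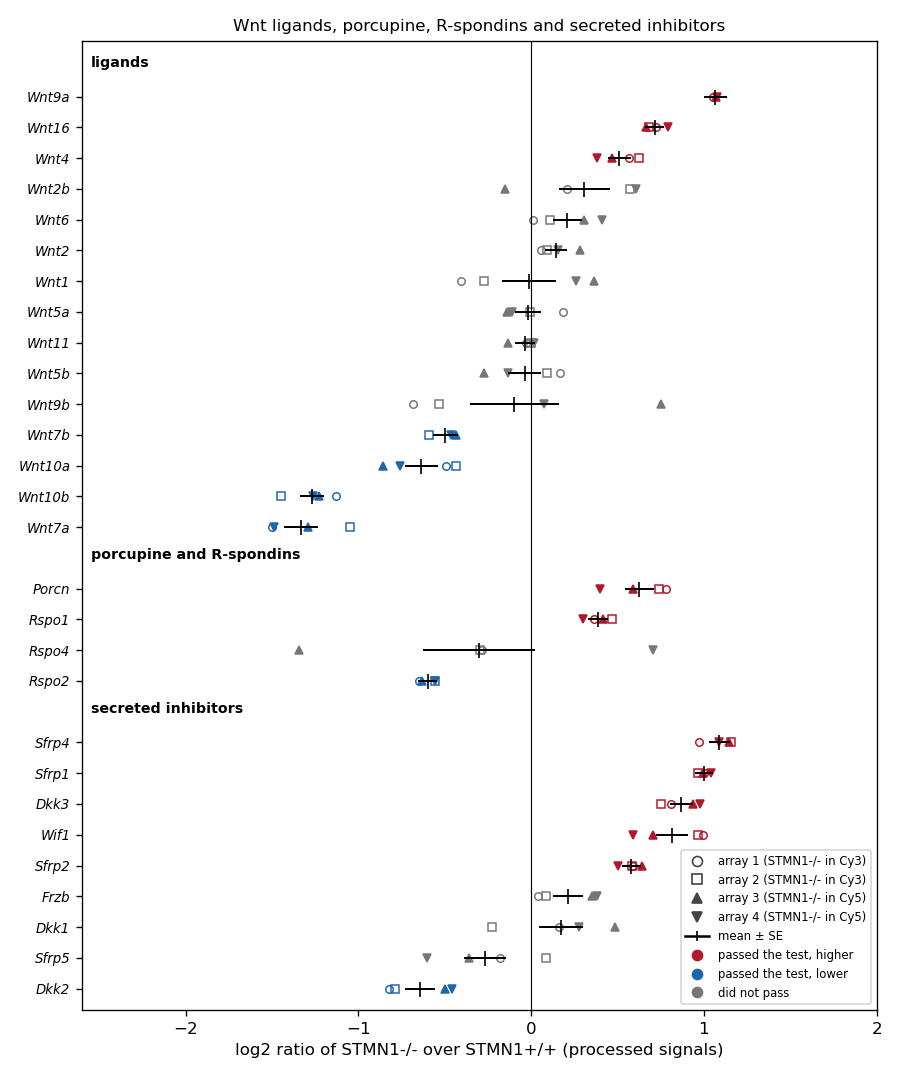
Log2 ratio of STMN1-/- over STMN1+/+ (x axis) for each tested ligand, for porcupine and the R-spondins, and for each tested secreted inhibitor (y axis). Symbols are single arrays, open where STMN1-/- RNA carried Cy3 and filled where it carried Cy5, and black bars the mean with its SE. All arrays plotted for each member that passed, without outlier spots, lie on one side of 0.

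Probe sequences are shown for 4 ligands and 2 secreted inhibitors that passed the test, picked after their values were seen, because the array reads a gene only through the 60 bases of each probe. The first 30 bases of each are given 5′ to 3′ in lower case, with the probe's position in mouse build mm7 as the array files give it. No annotation of that build was used here, so the exon or UTR of a probe is not stated.
Wnt9a, A_51_P375453, chr11:59414739-59414798, forward strand: aaacgtctgccggctggtttgtttctgtat
Wnt16, A_52_P615192, chr6:22227199-22227258, forward strand: agtacggcatgtggttcagcagaaagtttc
Wnt10b, A_51_P304643, chr15:98757734-98757793, reverse strand: cttcctcgaaggataatagcaggcattgtg
Wnt7a, A_52_P79782, chr6:91447162-91447221, reverse strand: cctcagcggtgggtcagtcagtgtctcaca
Sfrp4, A_51_P457196, chr13:18999998-19000057, forward strand: cacagttgtctgtgtgcatactgtgtaaga
Sfrp1, A_51_P352296, chr8:22232957-22233016, forward strand: cggaatcagtatagcgtggaaggagacagt
Sfrp1, A_52_P564706, chr8:22233645-22233704, forward strand: gtgcattagtaattagaaatagtctaacct

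Of 19 ligands on the array, 15 could be tested, and 3 of them rose while 4 fell, a share of 46.7% beside 25.8% of all genes. Wnt9a, a ligand known from joint and skeletal development, had signals of 14211, 12919 and 14018 in STMN1-/- MEFs on arrays 1, 3 and 4 against 6848, 6163 and 6648 in STMN1+/+ MEFs, with array 2 left out as an outlier spot. All STMN1-/- values lay above all STMN1+/+ values, and Wnt9a was 2.09 fold higher (log2 ratio 1.07, SE 0.07, adjusted p = 0.00274, n = 3 arrays). Wnt16, a ligand known for its role in cortical bone, had signals of 724, 694, 751 and 806 against 439, 433, 473 and 466 on arrays 1 to 4. The groups did not overlap, and Wnt16 was 1.64 fold higher (log2 ratio 0.71, SE 0.06, adjusted p = 0.00216). Wnt4, a ligand needed in kidney and female gonad development, had signals of 13172, 13166, 11365 and 12734 against 8888, 8553, 8216 and 9759. Every STMN1-/- value of Wnt4 exceeded the highest STMN1+/+ value, for a fold of 1.42 (log2 ratio 0.51, SE 0.07, adjusted p = 0.00776).

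The ligands that fell came from the Wnt7 and Wnt10 families. Wnt10b, known for holding back fat cell formation and favouring bone, had signals of 377, 267, 314 and 341 in STMN1-/- MEFs against 827, 728, 736 and 818. Each STMN1+/+ value was well above the highest STMN1-/- value, and Wnt10b fell 2.41 fold (log2 ratio -1.27, SE 0.07, adjusted p = 0.00107). Its paralog Wnt10a, known from tooth and skin appendages, had signals of 1572, 2022, 1442 and 1981 against 2209, 2735, 2613 and 3347 (log2 ratio -0.64, SE 0.09, adjusted p = 0.0112). The groups of Wnt10a did not overlap either, and without array 4 its adjusted p was 0.0526.

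Wnt7a, a ligand of limb patterning and the female reproductive tract, was not well above background in STMN1-/- MEFs on any array and was so in STMN1+/+ MEFs on all 4. Its signals were 81.3, 104, 100.5 and 97.1 against 230.1, 215, 246 and 273. On the scale of the processed signals the groups lay far apart, and the fit gave Wnt7a a fold of 2.52 downward. There the log2 ratio was -1.33, with an SE of 0.10 and an adjusted p of 0.00185 by limma. The probe entered the test through STMN1+/+ MEFs alone, and its STMN1-/- signals were not told apart from background. On all 4 arrays the lowest signal well above background in the STMN1-/- channel lay below these dim signals. It therefore sets no bound, and no smallest fold is given for Wnt7a. The log2 ratio of Wnt7a was only -0.18 with normexp and loess and did not pass. Wnt7b, its paralog, had log2 ratios of -0.59, -0.44 and -0.46 on arrays 2 to 4, with array 1 left out as an outlier spot (log2 ratio -0.50, SE 0.07, adjusted p = 0.0185). All 3 ratios of Wnt7b were below 0. With the outlier spots kept, its log2 ratio over 4 arrays was only -0.28 (SE 0.17, adjusted p = 0.296).

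With normexp and loess, Wnt9a (log2 ratio 1.01) and Wnt4 (0.41) passed the test and the other 5 ligands did not. There the log2 ratio was 0.31 for Wnt16, -0.42 for Wnt10a, -0.40 for Wnt10b, -0.18 for Wnt7a and -0.18 for Wnt7b, with adjusted p from 0.0523 to 0.170.

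**Figure D2:**
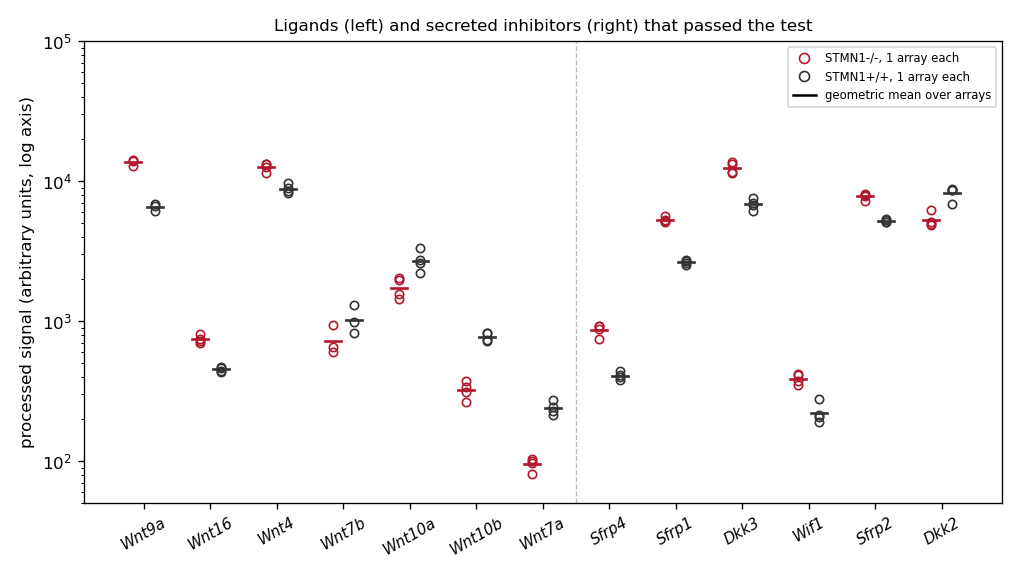
Processed signal (y axis, arbitrary units, log axis) of the ligands and secreted inhibitors that passed the test (x axis), in STMN1-/- MEFs (red) and STMN1+/+ MEFs (black). Each circle is 1 array and lines are geometric means, so that colours are to be compared within a gene only. The colours overlap for Wnt7b alone among these 13 genes, which were picked for passing the test on these signals. Overlap was not counted over all genes.

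The other 8 tested ligands did not pass. Wnt5a, the main ligand of the β-catenin-independent branch, had log2 ratios of 0.19, -0.01, -0.14 and -0.11 on arrays 1 to 4 (log2 ratio -0.02, SE 0.08, adjusted p = 0.892), on both sides of 0. Wnt11 and Wnt5b, of the same branch, had mean log2 ratios of -0.04 (adjusted p = 0.688) and -0.04 (adjusted p = 0.807). Wnt2 had a mean log2 ratio of 0.15 (adjusted p = 0.168) and Wnt6 of 0.21 (adjusted p = 0.147), both above 0 on every array. Wnt1 and Wnt9b divided by dye, with means of -0.34 and -0.61 where STMN1-/- RNA carried Cy3 and 0.31 and 0.41 where it carried Cy5. Wnt2b was not well above background in STMN1+/+ MEFs on any array (log2 ratio 0.31, SE 0.15, adjusted p = 0.197). Wnt3, Wnt3a, Wnt8a and Wnt8b were not well above background in either group on any array and were not tested.

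Porcn and Rspo1 rose and Rspo2 fell, 75% of the 4 tested beside 25.8% of all genes. Porcn encodes the enzyme that adds the lipid without which Wnts are not secreted, and its signals were 1495, 1499, 1270.4 and 1363 in STMN1-/- MEFs against 869.6, 899, 846 and 1032 on arrays 1 to 4. No STMN1-/- value reached down to the STMN1+/+ values, and Porcn was 1.54 fold higher (log2 ratio 0.63, SE 0.08, adjusted p = 0.00866). R-spondins are secreted proteins that keep Frizzleds at the cell surface by binding Lgr receptors. Rspo1 had log2 ratios of 0.36, 0.47, 0.42 and 0.30 and was 1.31 fold higher (log2 ratio 0.39, SE 0.06, adjusted p = 0.0118). Rspo2 had log2 ratios of -0.65, -0.56, -0.63 and -0.56 and fell 1.51 fold (log2 ratio -0.60, SE 0.05, adjusted p = 0.00320). Both held their sign on every array, and Rspo1 no longer passed without array 2 or without array 3. Rspo4, close to background, had a wide spread (-1.34 to 0.71 on single arrays, adjusted p = 0.550), and Rspo3 was not well above background. With normexp and loess, Rspo1 passed (log2 ratio 0.35) while Porcn (0.31, adjusted p = 0.0597) and Rspo2 (-0.27, adjusted p = 0.141) did not.

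The secreted Frizzled-related proteins bind Wnts outside the cell. Sfrp1 had signals of 5079.9, 5259.8, 5213 and 5654 in STMN1-/- MEFs against 2539.5, 2691, 2614 and 2753 by its brightest probe. The single arrays differed little, and Sfrp1 was 2.00 fold higher (log2 ratio 1.00, SE 0.05, adjusted p = 0.000881). Its other probe, whose sequence is given above and which starts 688 bases further along the chromosome, had signals of 318, 327, 268 and 318 against 74.1, 141, 119 and 175, well above background in STMN1+/+ MEFs on 2 of 4 arrays. Both probes of Sfrp1 passed the test in the same direction, the dimmer one with a wider spread (log2 ratio 1.34, SE 0.21, adjusted p = 0.0134).

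Sfrp4 had signals of 743, 919, 881 and 931 against 379, 412, 399 and 439. The groups were clearly apart, for a fold of 2.13 (log2 ratio 1.09, SE 0.06, adjusted p = 0.00104). Sfrp2 had signals of 7883, 8109, 7942 and 7255 against 5247, 5407, 5084 and 5115, which do not overlap, and was 1.49 fold higher (log2 ratio 0.58, SE 0.06, adjusted p = 0.00362). The other 2 members of the family did not pass: Frzb, also known as Sfrp3, was above 0 on every array (0.04 to 0.38, adjusted p = 0.138), and Sfrp5, not well above background in STMN1-/- MEFs, had a mean log2 ratio of -0.27 (adjusted p = 0.187).

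Wif1, which binds Wnts through a domain of its own, had signals of 410.0, 376, 351 and 421 against 206, 192, 215 and 279. Its lowest STMN1-/- value lay above its highest STMN1+/+ value, and Wif1 was 1.76 fold higher (log2 ratio 0.81, SE 0.09, adjusted p = 0.00561). The Dickkopf proteins Dkk1, Dkk2 and Dkk4 bind Lrp5 and Lrp6, while Dkk3 is a divergent relative that does not act on these co-receptors in the same way. Dkk3 had signals of 13219.7, 11454, 11688 and 13827 against 7551, 6793, 6106 and 7024 and was 1.83 fold higher (log2 ratio 0.87, SE 0.07, adjusted p = 0.00199), with no overlap. Dkk2 had signals of 4920.4, 5123, 4843 and 6255 against 8704, 8842, 6857 and 8597 and fell 1.56 fold (log2 ratio -0.64, SE 0.09, adjusted p = 0.00957), again with no overlap. Dkk1, itself a target of β-catenin, gave 2 probes of opposite mean sign that did not pass (log2 ratios 0.17 and -0.22). Dkk4 was not well above background.

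Of the 6 inhibitors that passed, Sfrp1, Sfrp2, Dkk3 and Dkk2 also passed with normexp and loess, at log2 ratios of 0.73, 0.42, 0.70 and -0.50. Sfrp4 (0.39, adjusted p = 0.0777) and Wif1 (0.24, adjusted p = 0.0831) did not. All 6 passed when any 1 array was left out.

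Frizzleds are the membrane receptors that Wnts bind, and of 10 tested 3 rose, 1 fell and 6 did not pass. The share called was 40%, beside 25.8% of all genes. Fzd2 had log2 ratios of 0.45, 0.38, 0.30 and 0.23 on arrays 1 to 4 (log2 ratio 0.34, SE 0.06, adjusted p = 0.0205). Those of Fzd1 were 0.23, 0.23, 0.40 and 0.48 (log2 ratio 0.33, SE 0.07, adjusted p = 0.0289). Those of Fzd6 were 0.27, 0.20, 0.29 and 0.34 (log2 ratio 0.28, SE 0.06, adjusted p = 0.0263). Fold changes were 1.26, 1.26 and 1.21 in that order and every array gave a ratio above 0, but none of the 3 passed when any 1 array was left out or when dim probes were kept in the fit. With normexp and loess, Fzd2 passed (log2 ratio 0.33) and Fzd1 (0.24) and Fzd6 (0.13) did not.

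Fzd10, a receptor of the same subfamily as Fzd4 and Fzd9, had signals of 304, 329, 294 and 341 in STMN1-/- MEFs against 582, 593, 563 and 640.3. The groups were separate by a wide margin, and Fzd10 fell 1.88 fold (log2 ratio -0.91, SE 0.05, adjusted p = 0.00116). Its other probe also passed (log2 ratio -0.55, SE 0.12, adjusted p = 0.0328), although it was well above background in STMN1-/- MEFs on 1 array only. With normexp and loess the brightest probe of Fzd10 had a log2 ratio of -0.30 (adjusted p = 0.0676).

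Probes of the same Frizzled did not always move together, and their first 30 bases are shown so that the pairs can be told apart. The bases from one start to the other were 1432 for Fzd2, 1825 for Fzd7 and 943 for Fzd10.
Fzd2, A_51_P404077, chr11:102715340-102715399, forward strand: tcacagtctacatgatcaaatacctcatga
Fzd2, A_52_P129428, chr11:102716772-102716831, forward strand: cgtgacattctatatcataagatattgata
Fzd7, A_52_P552665, chr1:59737506-59737565, forward strand: aagggaaggtgaacttcaaagtgattctgg
Fzd7, A_51_P142107, chr1:59735681-59735740, forward strand: agccccgactttacagtcttcatgatcaag
Fzd10, A_51_P233367, chr5:127838196-127838255, forward strand: tgcaagaacaggacattcggagcccaaatg
Fzd10, A_52_P203560, chr5:127839139-127839198, forward strand: ttgactctctgaattgttaaacaaatgatt

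The second probe of Fzd2 had signals of 4027, 3726, 3881 and 5116 against 2874, 2407, 2014 and 2673. That probe was 1.68 fold higher (log2 ratio 0.75, SE 0.10, adjusted p = 0.00907), beside 1.26 fold for the brightest one. For Fzd7, the 2 probes had opposite signs. Its brightest probe had log2 ratios of -1.35, -0.16, -0.33 and -0.39 on arrays 1 to 4, all below 0 but far apart, and did not pass (adjusted p = 0.126). Its other probe had log2 ratios of 0.51, 0.41, 0.14 and 0.36, all above 0, and passed (log2 ratio 0.36, SE 0.08, adjusted p = 0.0337). No direction is therefore given for Fzd7. Fzd3 had 2 probes above 0 on average, at 0.14 (adjusted p = 0.538) and 0.42 (adjusted p = 0.0310). Fzd4 (array 1 left out as an outlier spot), Fzd5, Fzd8 and Fzd9 did not pass, with mean log2 ratios of -0.48, -0.26, 0.11 and 0.34.

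**Figure D3:**
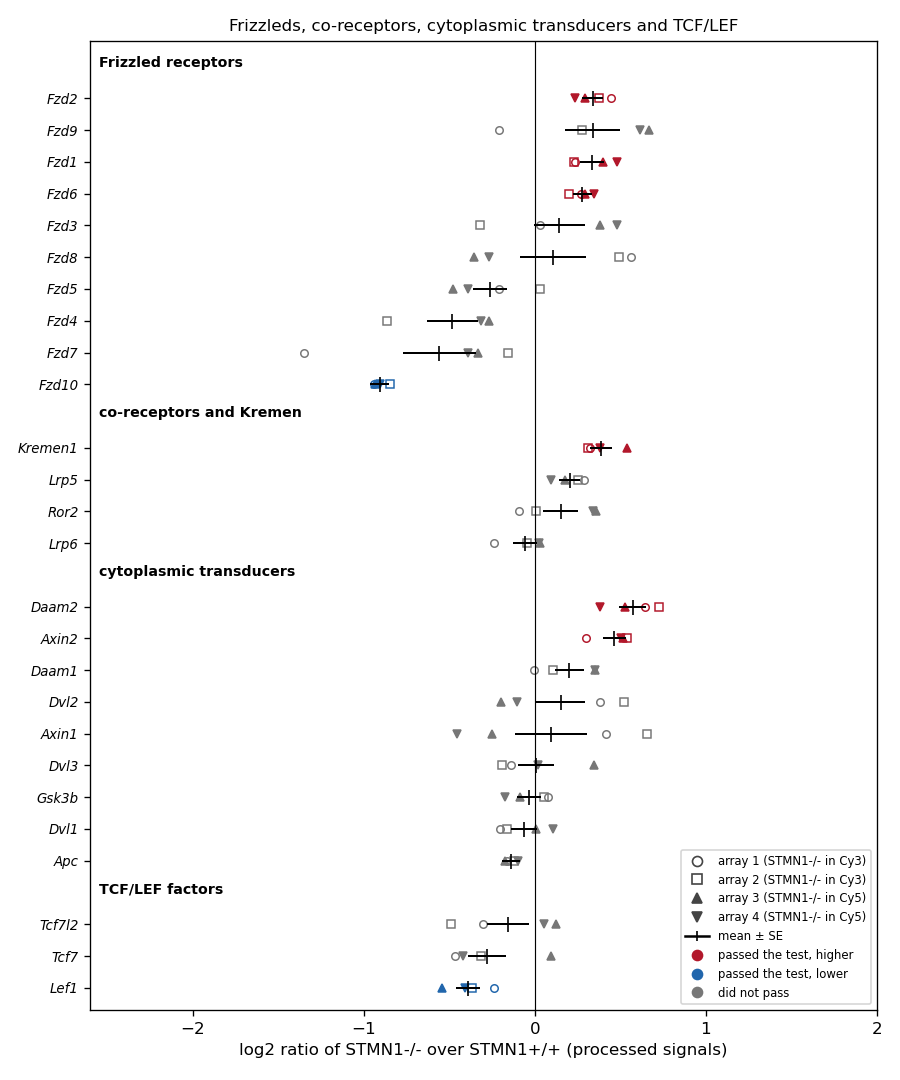
Log2 ratio of STMN1-/- over STMN1+/+ (x axis) for each tested Frizzled, co-receptor or Kremen, cytoplasmic transducer and TCF/LEF factor (y axis). Symbols are single arrays, open where STMN1-/- RNA carried Cy3 and filled where it carried Cy5, and black bars the mean with its SE. Fzd10 stands apart below 0, and Axin1, Dvl2 and Fzd8 lie on opposite sides of 0 in the 2 dye orientations.

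Among the 4 tested co-receptors and Kremens, only Kremen1 passed, a share of 25% beside 25.8% of all genes. Kremen1 binds Dickkopf proteins and takes Lrp6 off the cell surface. Its log2 ratios were 0.32, 0.31, 0.54 and 0.38 on arrays 1 to 4, and it was 1.31 fold higher (log2 ratio 0.39, SE 0.07, adjusted p = 0.0159). Its second probe was higher as well (log2 ratio 0.28, SE 0.05, adjusted p = 0.0248), but the brightest one did not pass when any 1 array was left out, nor with normexp and loess (log2 ratio 0.16). Lrp5 was above 0 on every array (0.10 to 0.29) with an adjusted p of 0.0717, and Lrp6 had a mean log2 ratio of -0.06 (adjusted p = 0.607). Ror2, the Wnt5a receptor, had 0.15 by its brightest probe (adjusted p = 0.342). The second probe of Ror2 had log2 ratios of 0.83, 0.75, 0.52 and -0.01 on arrays 1 to 4 and did not pass (log2 ratio 0.52, SE 0.15, adjusted p = 0.0710). Kremen2 and Ror1 were not well above background.

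Inside the cell, Axin1, Apc, Gsk3b, Daam1 and the Dishevelled genes did not pass the test. Of 9 cytoplasmic transducers, Axin2 and Daam2 rose, a share of 22.2% beside 25.8% of all genes. Axin2, a scaffold of the destruction complex that β-catenin itself switches on, had signals of 653, 624, 834 and 872 in STMN1-/- MEFs against 529, 429.7, 584 and 614. All STMN1-/- values were above all STMN1+/+ values, at a fold of 1.38 (log2 ratio 0.47, SE 0.07, adjusted p = 0.0104). Daam2, a formin that joins Dishevelled to actin, had signals of 1755, 2027, 1752 and 1721 against 1121, 1224, 1214 and 1319, with no overlap and a fold of 1.49 (log2 ratio 0.57, SE 0.08, adjusted p = 0.00892). Its second probe was above 0 on every array and did not pass (log2 ratio 0.38, SE 0.11, adjusted p = 0.0679).

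Axin2 did not pass without array 2, 3 or 4, and with normexp and loess neither Axin2 (log2 ratio 0.24, adjusted p = 0.135) nor Daam2 (0.29, adjusted p = 0.0551) passed. The kinase Gsk3b had a log2 ratio of -0.03 (adjusted p = 0.767) and the scaffold Apc of -0.14 (adjusted p = 0.126). Dvl1, Dvl2 and Dvl3, the Dishevelled proteins, had -0.06, 0.15 and 0.01, and Daam1 had 0.20 (adjusted p = 0.159). Axin1 was divided by dye, with a mean of 0.54 where STMN1-/- RNA carried Cy3 and -0.35 where it carried Cy5.

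Of the 3 TCF/LEF factors, Lef1 fell, a share of 33.3% beside 25.8% of all genes. Its log2 ratios were -0.24, -0.37, -0.54 and -0.41 on arrays 1 to 4 by its brightest probe (log2 ratio -0.39, SE 0.07, adjusted p = 0.0194) and -0.64, -0.53, -0.34 and -0.13 by another (log2 ratio -0.41, SE 0.10, adjusted p = 0.0423). Both probes were below 0 on every array, yet Lef1 did not pass without array 2, 3 or 4, nor with normexp and loess (log2 ratio -0.24, adjusted p = 0.0672). Tcf7 (-0.28, adjusted p = 0.138) and Tcf7l2 (-0.16, adjusted p = 0.420) did not pass. Tcf7l1 is on the array under the name Tcf3 and so is no member by the rule; by RefSeq accession its 2 probes were higher (log2 ratio 0.33, SE 0.06, adjusted p = 0.0213, and log2 ratio 0.36, SE 0.06, adjusted p = 0.0142).

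In 3 more cases a probe with another name on the array was matched to a member by RefSeq accession or by synonym. One for Fzd3 was higher (log2 ratio 0.65, SE 0.06, adjusted p = 0.00324), where the brightest probe named Fzd3 did not pass. One for Fzd5 was lower (log2 ratio -0.77, SE 0.10, adjusted p = 0.00912), where the probe named Fzd5 had a log2 ratio of -0.26 (adjusted p = 0.129). One for Lrp6 was near 0 (log2 ratio -0.07, SE 0.14, adjusted p = 0.776).

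With outlier spots left out, 31 of the 54 tested members lay on one side of 0 on every array that measured them. These include all 24 that passed, and a test against 0 favours such members. The same count over all genes was not made. The 7 that did not pass were Fzd4, Fzd7, Lrp5, Apc, Wnt2, Wnt6 and Frzb. In 11 members the arrays of one dye orientation lay above 0 and those of the other below: Fzd8, Tcf7l2, Lrp6, Axin1, Dvl1, Dvl2, Dvl3, Gsk3b, Wnt1, Wnt5b and Wnt9b. None of those 11 passed the test, which averages over balanced dyes.

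**Figure D4:**
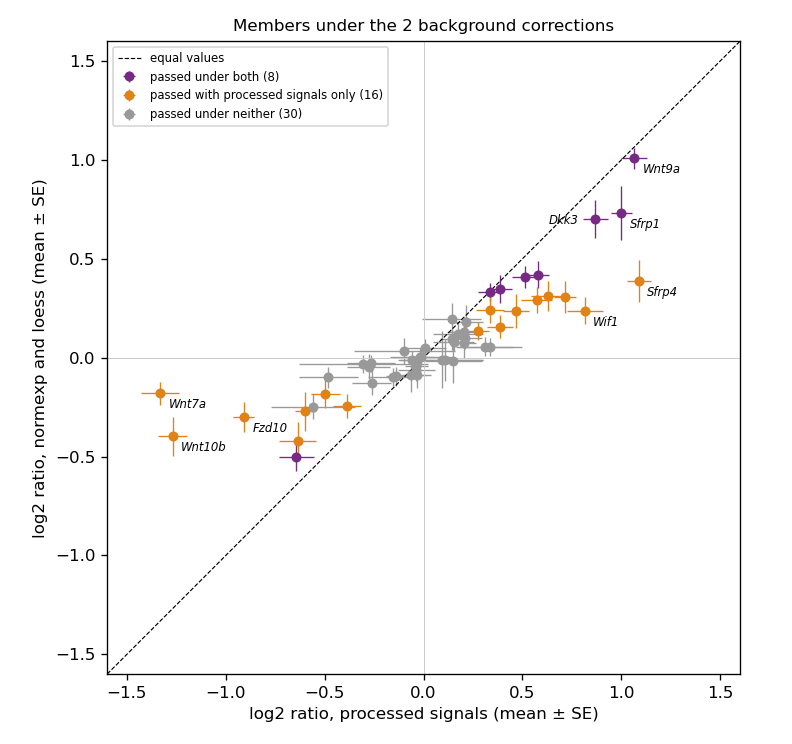
Log2 ratio of STMN1-/- over STMN1+/+ of the 54 tested members from the processed signals (x axis) and after normexp background correction with loess (y axis), with the SE of each. Purple members passed the test under both (8), orange ones with the processed signals only (16) and grey ones under neither (30), and the dashed line marks equal values. All 24 keep their sign, and Wnt7a, Wnt10b, Fzd10, Sfrp4 and Wif1 lie far nearer to 0 on the y axis.

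Genes that act beside the members were read from a list of 110 other Wnt pathway genes, of which 105 were tested, 23 were higher and 11 lower, a share of 32.4% beside 25.8% of all genes. The list's median log2 ratio was 0.06. With normexp and loess 12 were higher and 4 lower, and with 1 array left out 12 to 17 and 4 to 6. The receptors for R-spondins held the largest change: Lgr5, also a target of β-catenin and a stem cell marker, had log2 ratios of 1.79, 1.62, 2.03 and 1.97 on arrays 1 to 4 and was 3.62 fold higher (log2 ratio 1.85, SE 0.09, adjusted p = 0.000800). Its relative Lgr4 was higher (log2 ratio 0.68, SE 0.07, adjusted p = 0.00402) and Lgr6 lower (log2 ratio -0.75, SE 0.18, adjusted p = 0.0432). Wls, the carrier that brings Wnts to the cell surface, was 1.40 fold higher (log2 ratio 0.48, SE 0.06, adjusted p = 0.00617).

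Among Dishevelled partners, the inhibitor Nkd1 was 2.49 fold higher (log2 ratio 1.31, SE 0.09, adjusted p = 0.00142), its relative Nkd2 1.48 fold higher (log2 ratio 0.57, SE 0.06, adjusted p = 0.00451) and Dact1 2.38 fold higher (log2 ratio 1.25, SE 0.09, adjusted p = 0.00196), while Dact2 fell 1.74 fold (log2 ratio -0.80, SE 0.07, adjusted p = 0.00258). Sostdc1, a secreted inhibitor of both Wnt and BMP signals, was the 1 called gene of 7 tested in its list and fell 2.12 fold (log2 ratio -1.08, SE 0.13, adjusted p = 0.00620). Of 14 tested genes of planar cell polarity, the Wnt branch that orients cells in a sheet, 5 rose and 2 fell. The share called was 50%, beside 25.8% of all genes. Those that rose included Prickle1 (log2 ratio 0.67), Prickle3 (0.54), Prickle2 (0.48) and the membrane protein Vangl2 (0.35).

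Of 19 Wnt effectors at the cytoskeleton and in calcium signalling, 4 rose and 2 fell, or 31.6% beside 25.8% of all genes. The phospholipase Plcb1 (log2 ratio 0.91) and the transcription factor Nfatc4 (0.81) rose, and the kinases Prkca (-0.48) and Rock2 (-0.34) fell. Of 23 nuclear partners of β-catenin, 5 rose and 2 fell, a share of 30.4%. Among them, the Groucho-type corepressors Tle6 (0.63) and Tle2 (0.62) rose and Tle1 (-0.61) fell. Of 18 genes of the destruction complex and of β-catenin turnover, 1 rose and 1 fell, a share of 11.1%. The tankyrase Tnks2, which marks Axin for breakdown, rose (log2 ratio 0.30) and the ubiquitin ligase Siah1b fell (-0.39).

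Genes known as targets of β-catenin in some tissue moved both ways. Of 54 listed, of which 5 are also members, 51 were tested, and 10 were higher and 17 lower. That is a share of 52.9% beside 25.8% of all genes, and the list's median log2 ratio was 0.01. The genes that rose were led by Lgr5, by Epha3, an ephrin receptor (2.75 fold, log2 ratio 1.46, SE 0.08, adjusted p = 0.00106), by Nkd1 and by Ccn5, a matricellular protein (2.37 fold, log2 ratio 1.24, SE 0.06, adjusted p = 0.000800). Those that fell were led by Edn1, the vasoconstrictor endothelin (2.46 fold, log2 ratio -1.30, SE 0.10, adjusted p = 0.00191), by Ptgs2, the inducible cyclooxygenase (2.28 fold, log2 ratio -1.19, SE 0.05, adjusted p = 0.000800), by the adhesion molecule Nrcam (-1.06) and by Id2 (-1.02). The growth genes Myc (log2 ratio -0.77) and Ccnd1 (-0.62) fell while Axin2 rose and Lef1 fell. Many of these genes also answer to other signals.

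**Figure D5:**
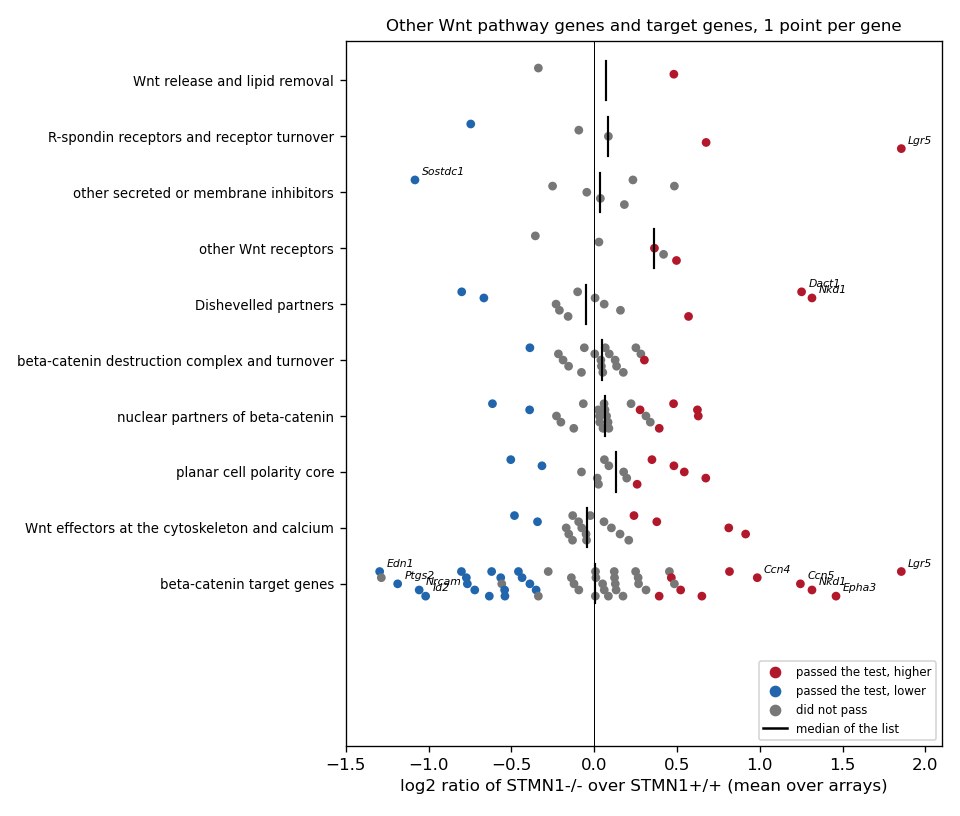
Mean log2 ratio of STMN1-/- over STMN1+/+ (x axis) of each tested gene in 9 lists of other Wnt pathway genes and in the list of β-catenin targets (y axis). Each point is 1 gene by its brightest probe, red or blue where it passed the test, and black lines are list medians. Lgr5 lies farthest to the right, and the targets spread to both sides of a median near 0.

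Letters that TCF/LEF factors are known to prefer were looked for in the members' promoters from RefSeq (build GRCm38.p6), in the 250 bases before each start. The letters searched were CTTTGA and, for the other strand, TCAAAG, and also the longer CTTTGAT with ATCAAAG. Of the 62 members, 42 had a promoter in the table. For CTTTGA, 9 of these (21.4%) held a match, beside 15.8% of 27025 genes. Of tested members that did not pass, 6 of 23 (26.1%) held it. CTTTGAT was found for 2 of the 42 members (4.8%), beside 3.7% of genes. It was found for 0 of 9 members that rose and 0 of 5 that fell. Among members that passed, CTTTGA was found for 1 of 9 that rose, Fzd1, and for 1 of 5 that fell, Lef1. Their windows of 30 bases are given 5′ to 3′ on the gene's strand, with the match in capitals. Lef1 held 2 matches, both before the farthest downstream of its listed starts, 180 and 120 bases ahead of it, and that of Fzd1 lay 242 bases ahead of its start.
Lef1, chr3:131156102-131156131, forward strand: taaaatacatggTCAAAGgaaaataggtat
Lef1, chr3:131156162-131156191, forward strand: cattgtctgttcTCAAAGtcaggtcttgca
Fzd1, chr5:4758437-4758466, reverse strand: cgcagcacTCAAAGtagcagtctgtgacca
A match is a description of letters and not a measured site.

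Marker genes of several cell types passed the test too, where 13.5% of all tested genes were higher and 12.3% lower. The marker lists are short, and whether any list differs from all genes was not tested. Of 13 fibroblast markers, 9 were higher and 1, Vim, lower in STMN1-/- MEFs, with summed signals of 4244000 to 6654190 against 3875210 to 4510030. All 9 tested epithelial markers, of 12 listed, were lower (Cdh1 -3.41, Krt5 -1.56), and their summed signals were 57039 to 67646 in STMN1-/- MEFs against 87434 to 98967. Of the listed genes, the epithelial Epcam, Esrp1 and Grhl2, the endothelial Cdh5, Pecam1 and Tie1, the neural and glial Dcx, Elavl3, Gfap and Snap25, the muscle Ckm and Myf5 and the skeletal Ibsp and Matn1 were not well above background in either group. Of 9 tested neural and glial markers, 7 were lower and 1 higher, with sums of 45707 to 50129 against 59256 to 67188. Of 8 adipocyte markers, 4 were lower and none higher, with sums of 16519 to 20133 against 27256 to 28959. Of tested markers, 4 of 8 muscle, 2 of 5 endothelial, 2 of 8 macrophage and 1 of 7 cartilage and bone genes were higher, and 0, 1, 2 and 3 of them were lower. Sums run over the genes measured on every array.

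The part of these marker differences in the members' values was not tested. In RNA from a whole culture, fewer cells of a type and less RNA per cell cannot be told apart.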

How the data were processed

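Total RNA of STMN1-/- and STMN1+/+ MEFs was labeled with Cy3 or Cy5 and hybridised together on 4 Agilent arrays of 1 slide, scanned on 1 day. The authors deposited intensity values (processed signals) from Agilent Feature Extraction 9.5.3.1, which per the file headers applied background subtraction and dye normalization within each array. A log10 ratio of Cy5 over Cy3 was deposited beside them. The authors' lists of selected probes, which hold log2 ratios per array, were not used.

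Signals were turned to log2 STMN1-/- over STMN1+/+ by the dye labels. Control spots and outlier spots were left out, and spots of a probe were averaged. Of 41174 probes, 27759 were well above background in a channel on at least 1 array, and 27648 of these, measured on at least 2 arrays, entered limma's moderated test against 0 (two-sided, Benjamini-Hochberg adjustment across these probes, calls at an adjusted p under 0.05). The software was R 4.3.3, limma 3.58.1, jsonlite 2.0.0, data.table (version 1.17.8), Python 3.11.15, numpy 2.4.6, pandas 2.3.3 and matplotlib 3.10.9. The test was also tried on simulated data, made from the spread of the real probes about their means with known changes added. Intensities carry no read depth, so the number of arrays limits the precision.

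A gene stood by its tested probe with the highest mean signal, and 19 members had more than 1 tested probe. Members were named as on the array, and of their 97 probes 80 had an accession in the RefSeq table, each with the same symbol. Members with a probe past the test have full values where it is the brightest one or has a fold of at least 1.5, other members a short value by role, and up to 4 called genes are named per list. The members, lists and marker sets were chosen with earlier results of these data known. Alternatives were normexp (offset 50) with loess, the log10 column, median centring, scaling, no filter on dim probes, a filter on all 4 arrays, outlier spots kept, dye as a coefficient, averages of opposite dye orientations, the methods' t-test against zero, the median over a gene's probes, and each array left out.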

Additional observations from a re-analysis of the deposited data

Results flagged for a closer look

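Of 51 members measured on all 4 arrays, 1 had an array far from the others. The log2 ratio of Axin2 on array 1 was 0.30, against 0.51 to 0.54 on the other 3, so that its gap to the nearest value was 0.865 of the whole range. About 1 in 20 groups of this size would show such a gap by chance. Without array 1, Axin2 had a log2 ratio of 0.52 and passed the test (adjusted p = 0.0246).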

How the results depend on the processing

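No reversal of sign occurred among the 24 members that passed, under any of the 16 alternatives. With normexp and loess, 7 members were higher and 1 lower, other pathway genes gave 12 and 4, and all probes 991 and 1148; the cause was not tested. With dim probes kept, 5 other pathway genes were lower and 1970 probes were higher and 1871 lower, with more probes tested. With dye as a second coefficient, 21 members were higher and 10 lower, and 5362 probes were higher and 5362 lower. By the methods' t-test, 15 members were higher and 6 lower. That test gave 1975 probes higher and 1882 lower, with 6 other pathway genes lower. The cause was not tested for either setting. With 1 array left out, the ranges were 10 to 12 members higher and 5 to 8 lower, 12 to 17 and 4 to 6 other pathway genes, and 1460 to 1649 and 1348 to 1537 probes, with fewer arrays and unequal dyes. β-catenin targets stayed within 1.5 times their counts.

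All 24 members passed with the log10 column, median centring, scaling, the filter on all 4 arrays, dye as a coefficient and the median over probes. Of these, 22 could be tested on averaged opposite orientations and passed, while Wnt9a and Wnt7b, each without 1 array, had no value. Kept outlier spots lost Wnt7b, the methods' t-test lost Fzd1, Lef1, Wnt10a and Wnt7b, and kept dim probes lost Fzd1, Fzd2 and Fzd6. Leaving out array 1 lost 4 members, and leaving out array 2, 3 or 4 lost 8 each.

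The ratio within each array already pairs the genotypes, so no further pairing by replicate number was fitted. All arrays share 1 slide and 1 scan day, so neither was fitted as a block.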
